A study of Mus musculus with 87 samples.

Results

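Mouse livers taken 1 h after partial hepatectomy (PH), the surgical removal of most of the liver, were compared with livers taken 1 h after sham surgery, in which the abdomen was opened under the same anaesthesia and no liver was resected. The comparison holds the 6 libraries labelled post-PH 1 hr (X1) and the 6 labelled sham control 1 hr (S1), which are 12 of the 80 libraries analysed and of the 87 samples that the labels describe. Each library was made from the poly(A) RNA of a single liver of a male C57BL/6 mouse aged 12 to 14 weeks, and the labels give no transgene or deletion. All mice had been entrained to alternating light and darkness with food only in the dark, were operated on at ZT2, 2 h after the lights came on, and were killed at ZT3. Both groups therefore share the anaesthesia, the opening of the abdomen, the daytime fast and the hour of collection, and differ by the resection. The other samples of the series are unoperated livers, among them the 9 resting livers at ZT2 (C0), and livers taken at later times after either operation. The study asked which changes of expression follow the loss of liver tissue rather than surgery itself.

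The first hour after resection is known as the priming phase, in which hepatocytes leave quiescence without yet making DNA. It is marked by immediate-early genes, whose transcripts appear within minutes because the factors that switch them on are already present in the cell. Signals named for this phase include cytokines such as TNF and IL-6, growth factors such as HGF, hormones acting through cAMP, and the increased flow of portal blood past the endothelium of the remnant. Several immediate-early products, among them the MAP kinase phosphatases and Sprouty proteins, shut off the signal that induced them.

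The replicate numbers form triplicates, 1 to 3 and 4 to 6, and the sham triplicates stood apart from each other. In a principal component analysis of the 12 libraries the first component held 24.2% of the variance, and along it sham replicates 1 to 3 lay between −31.2 and −20.04, sham replicates 4 to 6 between 10.0 and 36.2, and all 6 PH libraries between −8.88 and 7.85. The median RPKM of the genes tested was 1.57 to 1.81 in sham replicates 1 to 3, 1.86 to 2.09 in sham replicates 4 to 6 and 1.80 to 1.94 over the PH libraries. Estimated depth ran from 20.8 to 32.1 M (mega) reads in the PH libraries and from 12.2 to 46.0 M reads in the sham libraries, the lowest being sham replicate 5 and the highest sham replicate 1. The study collected the 1 h livers in separate periods, with 3 sham and 3 PH livers in each. The labels do not give the operation or the period to which a replicate number belongs. Hence differences between triplicates and differences between operating sessions cannot be told apart. The comparison is therefore also given within each triplicate. Summed hepatocyte markers lay between 36110 and 53850 RPKM after PH and between 31630 and 52230 RPKM after sham surgery, and none of their 7 genes was called.

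At 1 h few genes separated PH from sham surgery, and nearly all of those that did were higher after PH. A gene was called where limma gave an adjusted p under 0.05 and a log2 fold change, on log2(RPKM + 0.25), beyond 0.5. Of 15396 genes tested, 100 were called (0.65%), of which 96 rose (0.624%) and 4 fell (0.026%). The median log2 fold change was 0.83 over the 96 genes that rose, with 32 of them beyond 1, and 0.01 over all genes. The count depended on single libraries, being 58 without sham replicate 1, 65 without PH replicate 2 and 138 without sham replicate 4, and 16 where the 12 libraries were fitted without the other groups, while 53 of the 100 genes were called whichever of the 12 libraries was left out. Of the called genes described below, 11 kept their call where the 12 libraries were fitted alone, and 32 lost it. The 11 were Apold1, Rasd1, Gm129, Gm17132, Akap12, Dusp8, Dusp5, Klf2, Atp1b1, Tnfaip6 and Tmem140. Unless another fit is named, the standard errors and adjusted p below take each gene's spread from all groups of the series. They do not measure the spread of these 12 livers by themselves. With the 12 libraries alone the adjusted p was 0.556 for Nr4a3, 0.458 for Pde4b, 0.338 for Spry4, 0.255 for Zfp36l1 and 0.24 for Fosl2. In 49 of the 100 genes the 6 PH libraries did not overlap the 6 sham libraries, against 0.786% of all genes tested. As the 100 genes were chosen on these same libraries, that share is a description. A further 24 genes had an adjusted p under 0.05 and a smaller fold change. In bulk RNA such as this, fewer cells of a type and less RNA per cell cannot be told apart.

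**Figure D1:**
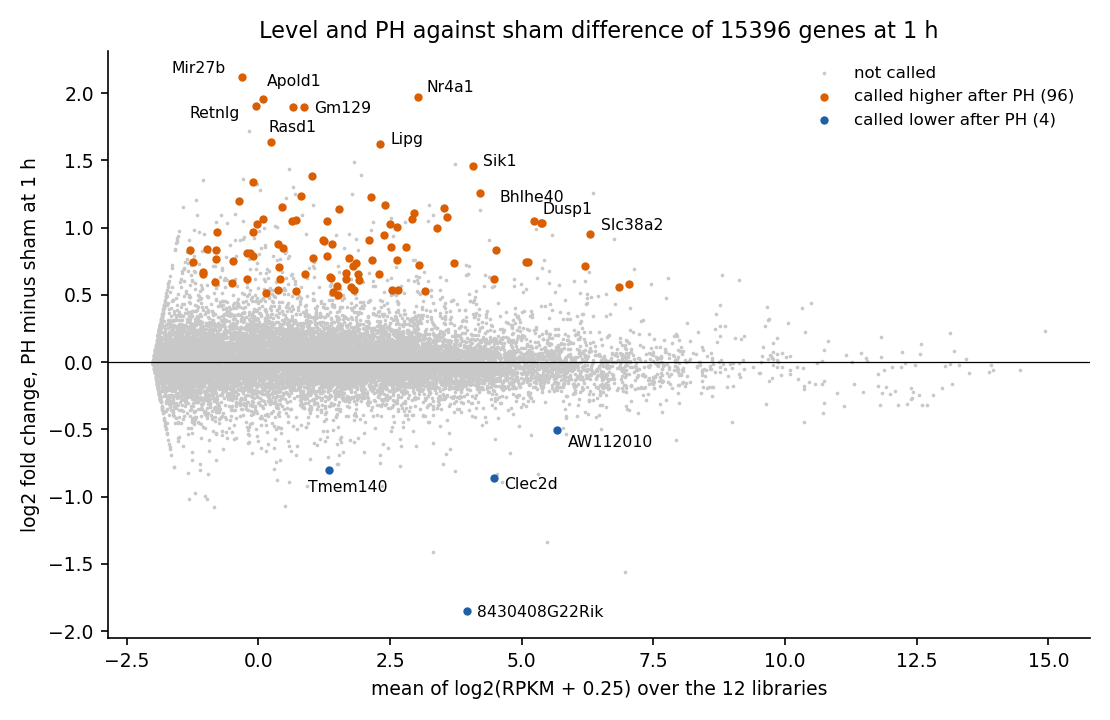
Mean level of each gene over the 12 libraries (x axis, mean of log2(RPKM + 0.25)) against its log2 fold change of PH over sham at 1 h (y axis, on the same scale), with the 96 genes called higher and the 4 called lower coloured. The calls lie almost wholly above 0, and Apold1, at 1.96, stands among the highest.

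Genes with known roles in the vessel wall included the change with the lowest adjusted p in the fit of all groups. Apold1, an early-response gene of endothelial cells (chromosome 6, 134932019 to 134936854, plus strand, mm9), had a lowest, median and highest level of 1.04, 1.76 and 2.95 RPKM after PH and of 0.172, 0.299 and 0.404 RPKM after sham surgery. The lowest PH library therefore stood above the highest sham library, and the resting C0 livers had a median of 0.203 RPKM, like sham. Its log2 fold change was 1.96 ± 0.16 (SE, n = 6 and 6, adjusted p = 2.36e-14), the lowest adjusted p of all genes in that fit. With the 12 libraries fitted alone its adjusted p was 0.00346, above that of Gm129 at 0.00154. Thbd, which encodes the anticoagulant receptor thrombomodulin, was at 1.90, 2.29 and 3.51 RPKM after PH against 0.464, 0.997 and 1.36 RPKM after sham surgery. It too showed no overlap (log2 fold change 1.23 ± 0.21, adjusted p = 0.000106) and rose alike in both triplicates, by 1.16 and 1.30. Lipg, which encodes endothelial lipase, was at 4.84, 9.56 and 10.9 RPKM after PH and at 1.44, 2.62 and 4.69 RPKM after sham surgery, again without overlap (1.62 ± 0.26, adjusted p = 5.86e-05). Thbd and Lipg lost their call where the 12 libraries were fitted alone. Of the 14 genes tested from a list on endothelial shear and activation, Apold1 and Thbd were the 2 called, and the median of the list was −0.01. Tek, the angiopoietin receptor, and Ednrb, an endothelin receptor, were among its members that were not called. Summed markers of endothelial cells were 15.7 to 28.5 RPKM after PH and 18.9 to 29.2 RPKM after sham surgery, and none of their 7 genes was called.

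The immediate-early genes that rose included nuclear receptors and Krüppel-like factors, with Nr4a1 the furthest. Nr4a1, an orphan nuclear receptor (chromosome 15, 101097277 to 101105223, plus strand, mm9), was at 8.53, 15.9 and 32.8 RPKM after PH and at 1.54, 2.62 and 21.4 RPKM after sham surgery. The groups overlapped through sham replicate 4, the library at 21.4 RPKM, and the next highest sham library held 6.37 RPKM. The log2 fold change was 1.97 ± 0.35 (adjusted p = 0.00024), with 3.33 in replicates 1 to 3 and 0.62 in replicates 4 to 6. Where the 12 libraries were fitted alone, its adjusted p was 0.327. Nr4a3, a receptor of the same family, was low throughout, at 0.179, 0.329 and 0.739 RPKM after PH and 0.0474, 0.0787 and 0.476 RPKM after sham surgery, with overlap (0.66 ± 0.12, adjusted p = 0.000589). Klf4, a Krüppel-like transcription factor, was at 0.731, 1.13 and 1.67 RPKM against 0.319, 0.405 and 0.79 RPKM (1.02 ± 0.17, adjusted p = 0.00011). Klf2, its relative known from endothelium under flow, was at 5.54, 7.13 and 9.08 RPKM against 2.89, 3.38 and 4.78 RPKM, with no overlap (0.94 ± 0.19, adjusted p = 0.00223). Klf4 did overlap, by a single sham library, replicate 4. Klf10, a Krüppel-like factor induced by TGF-beta, was at 12.9, 16.1 and 22.1 RPKM against 5.13, 6.26 and 16.2 RPKM, with overlap (1.14 ± 0.29, adjusted p = 0.0314). It lost its call without sham replicate 1, 4, 5 or 6 or PH replicate 2, 3 or 6, with an adjusted p of up to 0.135.

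Dusp4, Dusp8, Dusp1, Dusp5 and Sik1 also rose. Dusp4, a MAP kinase phosphatase of the nucleus, was at 1.85, 2.75 and 6.06 RPKM after PH and at 0.706, 0.881 and 1.64 RPKM after sham surgery, without overlap (1.38 ± 0.19, adjusted p = 1.46e-06). Dusp8, a phosphatase that acts on JNK and p38, was at 1.47, 1.81 and 2.20 RPKM against 0.502, 0.724 and 0.795 RPKM, likewise without overlap (1.16 ± 0.20, adjusted p = 0.000249). Its median in resting livers was 0.0677 RPKM, so that it stood above the resting level after either operation. The annotation holds 2 overlapping entries under the symbol Dusp8, and reads in the shared part may be divided between them. Dusp1, the most abundant of these phosphatases, was at 35, 57.4 and 67.5 RPKM against 13.1, 28.9 and 43.1 RPKM (1.05 ± 0.25, adjusted p = 0.0179). Dusp5, specific for ERK, was at 0.966, 1.21 and 1.96 RPKM against 0.307, 0.484 and 0.664 RPKM (1.06 ± 0.26, adjusted p = 0.0202). The groups overlapped for Dusp1 and not for Dusp5. Both lost their call without sham replicate 1 or PH replicate 2 or 3, Dusp1 also without sham replicate 6 (adjusted p up to 0.138) and Dusp5 also without sham replicate 5 (up to 0.103). Sik1, a salt-inducible kinase of the cAMP response, was at 22.8, 25.3 and 39.5 RPKM after PH and at 5.79, 11 and 16.8 RPKM after sham surgery. Every PH library exceeded every sham library (1.46 ± 0.24, adjusted p = 0.00011).

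**Figure D2:**
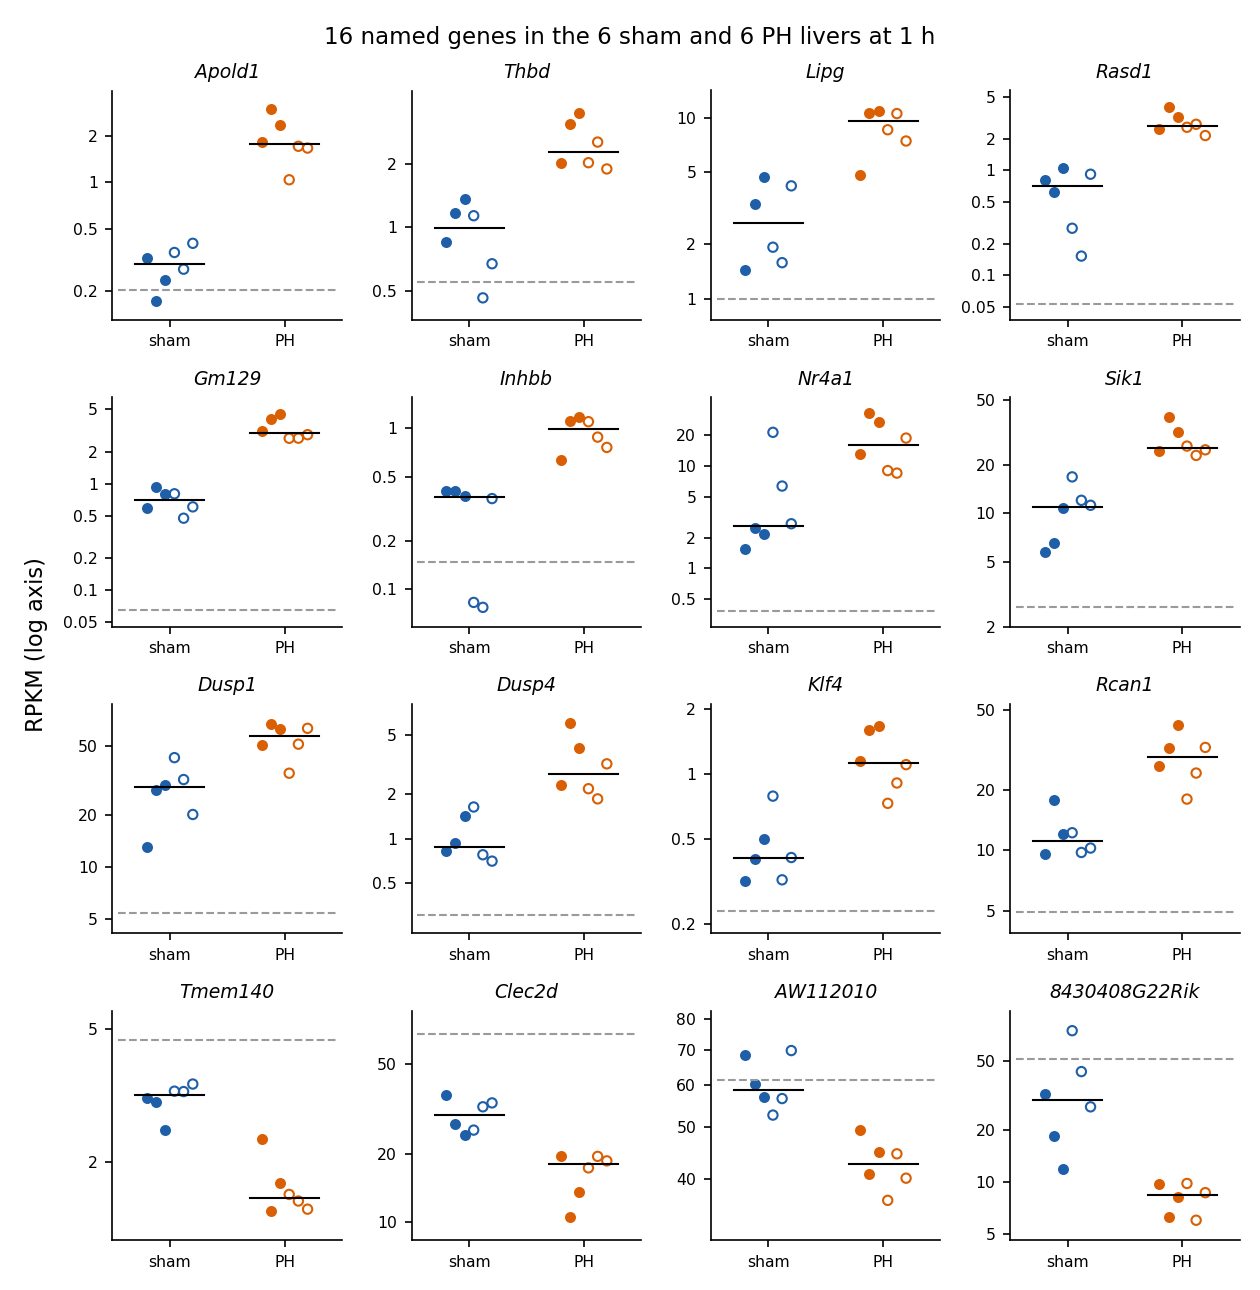
RPKM of 16 genes in each of the 12 libraries (points; filled, replicates 1 to 3; open, replicates 4 to 6), on log axes by gene, with the median of each group as a black line and the median of the resting C0 livers as a grey dashed line. PH and sham points are separate for Apold1 and Sik1, whereas for Nr4a1 sham replicate 4, at 21.4 RPKM, lies among the PH points.

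Promoter sequences show what sequence these transcripts start from, and 3 of the 6 promoters read held a searched motif. These 6 had the lowest adjusted p among genes with a matched promoter that were called list members or among the 20 largest rises. Rasd1, Dusp4, Akap12, Lipg, Thbd, Gm129 and Sik1 had a lower adjusted p than Nr4a1, but their promoters were not read. The promoters read run from 250 bases before to 50 bases after the start of the gene (RefSeq, GRCm38.p6), and capitals mark the motifs. The Apold1 promoter (chr6:134981751-134982050, plus strand) holds a STAT motif (TTCNNNGAA) at −83 and a TATA box (TATAAA) at −32. The Klf4 promoter (chr4:55532426-55532725, minus strand) holds an E-box (CACGTG) at −182. The Dusp8 promoter (chr7:142095235-142095534, minus strand) holds a cAMP response element (CRE, TGACGTCA) at −107 and another at −63.
Apold1: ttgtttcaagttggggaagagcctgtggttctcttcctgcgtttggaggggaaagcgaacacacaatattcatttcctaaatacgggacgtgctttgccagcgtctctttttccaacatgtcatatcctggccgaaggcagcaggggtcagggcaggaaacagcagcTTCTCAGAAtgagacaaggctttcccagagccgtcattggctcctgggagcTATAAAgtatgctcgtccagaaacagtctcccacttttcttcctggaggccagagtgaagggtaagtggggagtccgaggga
Klf4: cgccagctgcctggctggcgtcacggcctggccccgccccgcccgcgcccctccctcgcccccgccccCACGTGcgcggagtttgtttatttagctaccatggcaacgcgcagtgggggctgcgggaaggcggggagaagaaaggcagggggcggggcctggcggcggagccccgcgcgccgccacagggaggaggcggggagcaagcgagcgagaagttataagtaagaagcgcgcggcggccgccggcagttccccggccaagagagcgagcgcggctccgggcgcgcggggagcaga
Dusp8: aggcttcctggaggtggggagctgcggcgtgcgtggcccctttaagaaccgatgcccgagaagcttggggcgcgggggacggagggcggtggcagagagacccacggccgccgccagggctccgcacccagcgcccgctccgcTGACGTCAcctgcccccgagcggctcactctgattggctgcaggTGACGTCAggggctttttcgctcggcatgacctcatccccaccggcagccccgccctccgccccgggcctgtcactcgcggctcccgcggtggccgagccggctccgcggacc
The promoters of Inhbb, Nr4a1 and Nr4a3 held none of the letters searched, which were these motifs, AP-1 (TGANTCA) and the CArG box, on both strands. RefSeq promoters matched 64 of the 96 genes that rose, and 9 of the 64 (14.1%) held a CRE, against 3.54% of 9206 symbols tested and 2.03% of all 27025 symbols with a promoter. These 9 were Ccnl1, Ch25h, Dusp1, Dusp8, Inpp4a, Maff, Rcan1, Trak1 and Wsb1. For the other motifs the shares of the 64 promoters and of the tested symbols were 12.5% and 6.65% for AP-1, 1.56% and 1.53% for the CArG box, 14.1% and 11.6% for the E-box, 12.5% and 8.59% for STAT, and 10.9% and 9.82% for the TATA box. The CRE and AP-1 searches do not match the same letters, although a palindrome such as the CRE or the E-box is found on both strands at a single place. A match describes letters in this window and is no evidence that a factor bound there.

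Over a list of other immediate-early genes, 10 of 28 tested rose, against 0.624% of all genes, and none fell, against 0.026%. Its members had been chosen with earlier results of these data known. The 10 were Nr4a1, Sik1, Dusp4, Klf10, Dusp5, Dusp1, Klf4, Klf2, Zfp36l1 and Nr4a3. The median log2 fold change of the list was 0.61, with 25 of 28 above 0, and it was 0.87 within replicates 1 to 3 and 0.31 within replicates 4 to 6. The count was 7 without sham replicate 1, PH replicate 2 or PH replicate 3, and 2 where the 12 libraries were fitted alone. Zfp36l1, which promotes the decay of AU-rich mRNA, was the exception in its relation to the resting liver. It was at 33.5, 48.3 and 55.1 RPKM after PH and 18.2, 25.8 and 42.5 RPKM after sham surgery (0.74 ± 0.16, adjusted p = 0.00641), while resting livers had a median of 49.0 RPKM. Its level after PH differed from C0 by −0.11 and that after sham surgery by −0.86, so the PH livers were near the resting level. Of the list's members not called, Plk3, a stress-induced kinase, had a log2 fold change of 0.62 (adjusted p = 0.681), and Zfp36, an mRNA decay factor, one of −0.01.

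Of 13 AP-1 and ATF factors tested, 2 rose, and the best known of them were not called. Fosl2, a FOS-related partner of JUN proteins, was at 2.23, 3.06 and 5.71 RPKM after PH and 1.33, 1.53 and 3.07 RPKM after sham surgery (0.88 ± 0.17, adjusted p = 0.00164). Maff, a small MAF protein, was at 4.93, 8.89 and 12.2 RPKM against 2.78, 3.97 and 7.39 RPKM (1.00 ± 0.26, adjusted p = 0.0355). In both genes the groups overlapped, and Maff lost its call without sham replicate 1, 2, 3 or 5 or PH replicate 1, 2 or 3, with an adjusted p of up to 0.155. The count of the list was 1 without each of these libraries in turn. Jun was at 8.62, 12.0 and 13.5 RPKM after PH and at 4.22, 6.62 and 30.9 RPKM after sham surgery, a log2 fold change of 0.44 (adjusted p = 0.733). Junb differed by 0.35 (adjusted p = 0.843) and Jund by 0.03. The sham library with the highest Jun was again replicate 4. Over the 41 genes of this list and the preceding one, sham replicate 4 was the highest of the 6 sham libraries in 30 genes (73.2%), against 39.9% of all genes tested. Without it, 3 AP-1 and ATF factors and 10 other immediate-early genes were called.

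Fos, Egr1, Atf3 and Myc, named here after their values were seen because they are textbook markers of this phase, were not called either. Fos was at 1.41, 2.54 and 3.69 RPKM after PH and 0.282, 1.43 and 3.45 RPKM after sham surgery (0.74, adjusted p = 0.632). Egr1 was at 6.18, 10.2 and 13.5 RPKM against 5.00, 7.94 and 18.1 RPKM (0.21, adjusted p = 0.979). In both genes the groups overlapped. Atf3 was at 4.62, 11.9 and 17.7 RPKM against 2.24, 4.78 and 12.0 RPKM (1.04, adjusted p = 0.183), and Myc was at 1.06, 1.91 and 2.31 RPKM against 0.805, 1.39 and 3.41 RPKM (0.11, adjusted p = 0.984). Atf3 stood far above the resting median of 0.333 RPKM after both operations. No gene of the Myc network list of 12 was called (median 0.08).

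Pde4b was the only call in a list of cAMP and fasting glucose genes (1 of 20 tested, median 0.26), and Rasd1, Rcan1 and Akap12 were among the 20 largest rises. Rasd1, a Ras-like protein first found as induced by dexamethasone, was at 2.14, 2.65 and 4.02 RPKM after PH and at 0.153, 0.712 and 1.05 RPKM after sham surgery. The groups did not overlap (1.90 ± 0.24, adjusted p = 1.42e-07), and the resting median was 0.0539 RPKM. Rcan1, an inhibitor of the calcium-activated phosphatase calcineurin, was at 18.0, 29.3 and 42.0 RPKM against 9.62, 11.2 and 17.9 RPKM (1.25 ± 0.26, adjusted p = 0.00304), with the lowest PH library only just above the highest sham library. Akap12, an anchor for protein kinase A, was at 0.82, 1.27 and 1.90 RPKM against 0.184, 0.335 and 0.52 RPKM, without overlap (1.34 ± 0.19, adjusted p = 2.87e-06). Pde4b, which degrades cAMP, was at 0.851, 2.11 and 3.55 RPKM against 0.382, 0.815 and 1.94 RPKM (1.05 ± 0.25, adjusted p = 0.0175), and it overlapped. Its adjusted p reached 0.114 among fits without a library, and it lost its call without sham replicate 1 or 2 or PH replicate 2 or 3. In the list that holds Pde4b, Igfbp1, an IGF-binding protein secreted by hepatocytes, Pck1 and G6pc, enzymes of gluconeogenesis, were the most abundant of those not called, with log2 fold changes of 0.61, 0.29 and 0.64 and adjusted p of 0.808, 0.857 and 0.63.

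Lists of growth factor, activin and hypoxia genes gave a single call each. The lists are not complete: Dusp4 and Dusp5 were counted among other immediate-early genes, and Hilpda, described below, in no pathway list. Spry4, a feedback inhibitor of ERK signalling, was at 1.17, 1.53 and 2.23 RPKM after PH and 0.47, 0.656 and 1.83 RPKM after sham surgery (0.85 ± 0.21, adjusted p = 0.023). It overlapped through sham replicate 4 and lost its call without sham replicate 1, 2 or 6 or PH replicate 2 or 3, with an adjusted p of up to 0.122. It was the 1 of 20 tested in the list of HGF, EGF receptor and ERK feedback (median 0.17), where Egfr, Erbb3 and Hgfac were not called. Inhbb, the beta-B subunit of activin and inhibin, was at 0.634, 0.987 and 1.18 RPKM against 0.0772, 0.372 and 0.407 RPKM, without overlap (1.20 ± 0.19, adjusted p = 7.4e-05), and was the 1 of 26 in the TGF-beta, activin and BMP list (median 0.04). Bhlhe40, a transcriptional repressor, was at 44.8, 63.1 and 72.1 RPKM against 20.5, 27.3 and 47.1 RPKM, with overlap (1.04 ± 0.23, adjusted p = 0.00651), and was the 1 of 18 among hypoxia-responsive genes (median 0.13). Its resting median was 7.52 RPKM. Vegfa, Ldha and Bnip3, further members of that list, were not called.

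Clock genes held 2 calls among 17 tested (median 0.21). Gm129, also known as Ciart, which encodes a repressor of CLOCK and BMAL1, was at 2.67, 2.99 and 4.56 RPKM after PH and at 0.472, 0.703 and 0.938 RPKM after sham surgery. The groups were far apart (1.90 ± 0.32, adjusted p = 0.000106), and resting livers, taken 1 h earlier in the day, had a median of 0.0641 RPKM. Cry2, a core repressor of the clock, was at 3.39, 4.51 and 6.08 RPKM against 2.07, 2.75 and 3.27 RPKM, without overlap (0.66 ± 0.13, adjusted p = 0.00188). Per1, looked at after its values were seen, had no overlap between the groups either, at 7.03, 7.51 and 10.0 RPKM against 2.49, 4.51 and 5.33 RPKM, but was not called (0.94, adjusted p = 0.434). Rora and Nfil3 were among the members not called. None of 14 genes on a list of glucocorticoid-responsive genes was called (median 0.21), but that list does not hold the called genes Rasd1 and Dusp1. Fkbp5, a chaperone of the glucocorticoid receptor named after its values were seen, was at 15.8, 23.2 and 27.5 RPKM against 2.65, 9.62 and 20.1 RPKM (1.47, adjusted p = 0.0916).

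The remaining genes with the largest rises had diverse functions. Tiparp, an ADP-ribosyltransferase of the aryl hydrocarbon receptor pathway, was at 3.96, 6.05 and 12.2 RPKM after PH and 1.58, 2.72 and 4.16 RPKM after sham surgery (1.23 ± 0.23, adjusted p = 0.000723), and the ranges overlapped narrowly. Hilpda, a protein of lipid droplets, was at 4.47, 7.09 and 20.6 RPKM against 1.81, 3.65 and 5.19 RPKM, with overlap (1.17 ± 0.26, adjusted p = 0.00984). It lost its call without sham replicate 1 or PH replicate 2, with an adjusted p of up to 0.112. Slc16a5, of the monocarboxylate transporter family, was at 2.68, 4.03 and 5.79 RPKM against 0.71, 1.74 and 3.19 RPKM, also with overlap (1.14 ± 0.28, adjusted p = 0.0217), and lost its call without sham replicate 1 or 5 or PH replicate 3, 4 or 6 (up to 0.13). Ccnl1, cyclin L1, which takes part in RNA processing, was at 8.93, 10.6 and 15.3 RPKM against 2.81, 5.19 and 7.67 RPKM, without overlap (1.11 ± 0.22, adjusted p = 0.00189). Its resting median of 5.34 RPKM was like that of the sham livers. Apbb3, an adaptor that binds the amyloid precursor protein, was at 14.6, 16 and 22.8 RPKM against 5.47, 8.13 and 12.1 RPKM (1.07 ± 0.23, adjusted p = 0.00534), and it overlaps Sra1 on the same strand. Gm17132, annotated as a pseudogene, on the strand opposite to Tmem132d, was at 1.38, 1.66 and 2.71 RPKM against 0.215, 0.46 and 0.638 RPKM, without overlap (1.64 ± 0.19, adjusted p = 7.73e-09). Mir27b, the precursor of a microRNA, had the highest log2 fold change of the named genes at 2.12 ± 0.44 (adjusted p = 0.00269), but it rested on no more than 5.99 estimated reads in any library and lies inside the gene 2010111I01Rik on the same strand. In 4 of the 6 sham libraries it was listed at 0.

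Markers of neutrophils moved with the comparison in part. Retnlg, a resistin-like protein of neutrophils, was at 0.873, 1.57 and 2.76 RPKM after PH and 0, 0.351 and 0.58 RPKM after sham surgery, without overlap (1.91 ± 0.38, adjusted p = 0.00186). It was the 1 gene called of 11 neutrophil markers tested. The summed level of that list was 9.02, 14.3 and 20.3 RPKM after PH against 2.74, 4.62 and 12.3 RPKM after sham surgery, and in C0 it ran from 0.454 to 54.6 RPKM with a median of 1.26. The sham library at 12.3 RPKM was replicate 1, and the others lay at 6.61 RPKM or below. Of the 11 markers, 8 had a log2 fold change above 0, and the median was 0.11. The sums did not overlap within replicates 4 to 6, where 2 markers were called higher. There they were 12.7 to 20.3 RPKM after PH and 2.74 to 4.65 RPKM after sham surgery. The sums overlapped within replicates 1 to 3, where no marker was called. Of the defining markers, Ly6g and Ltf were listed at 0 in all 6 PH libraries. S100a8 and S100a9, the abundant calcium-binding proteins of these cells, named after their values were seen, had log2 fold changes of 1.25 (adjusted p = 0.502) and 1.39 (adjusted p = 0.411). Il1a, a cytokine, was at 1.06, 2.24 and 3.75 RPKM against 0.689, 0.829 and 1.25 RPKM (1.06 ± 0.28, adjusted p = 0.0391), the 1 of 20 cytokines and chemokines called (median −0.05). It lost its call without sham replicate 1, 2, 3, 5 or 6 or PH replicate 2, 3 or 6, with an adjusted p of up to 0.199. Whether a different number of neutrophils had a part in the levels of Retnlg or Il1a was not tested.

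No gene of the other marker lists was called. Summed levels after PH and after sham surgery were 20.0 to 27.3 and 18.9 to 30.6 RPKM for cholangiocytes, 25.9 to 63.6 and 33.1 to 62.2 RPKM for macrophages, 107 to 164 and 101 to 163 RPKM for monocytes, 48.8 to 77.8 and 47.3 to 78.6 RPKM for stellate cells and fibroblasts, and 53.1 to 140 and 48.1 to 98.7 RPKM for erythroid cells. Markers of B cells, of T and NK cells, of mesothelium, of platelets, of skeletal muscle and of smooth muscle likewise overlapped between the groups. Those of the acinar pancreas did too, with sums of 9.53 to 17.7 RPKM after PH and 10.15 to 16.05 RPKM after sham surgery. Of their 6 genes, Cela3b was the 1 listed at 0 in all 12 libraries.

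The 4 genes that fell did so without overlap between the groups. Clec2d, a lectin that is a ligand of a receptor on NK cells, was at 10.5, 18.0 and 19.5 RPKM after PH and 24.3, 29.8 and 36.5 RPKM after sham surgery (−0.86 ± 0.21, adjusted p = 0.0215), below a resting median of 68.1 RPKM. Tmem140 was at 1.43, 1.57 and 2.35 RPKM against 2.50, 3.17 and 3.42 RPKM (−0.80 ± 0.17, adjusted p = 0.00562) and was the only one of the 4 called in all 12 fits without a library. 8430408G22Rik was at 5.97, 8.36 and 9.76 RPKM against 11.8, 29.6 and 75 RPKM (−1.85 ± 0.46, adjusted p = 0.0231), so that its spread lay mainly among the sham libraries. AW112010 was at 36.5, 42.8 and 49.3 RPKM against 52.7, 58.7 and 69.7 RPKM (−0.51 ± 0.12, adjusted p = 0.019). Clec2d lost its call without sham replicate 1 or 5 or PH replicate 2 or 3 (adjusted p up to 0.128), 8430408G22Rik without sham replicate 1, 4 or 5 or PH replicate 2 or 5 (up to 0.08), and AW112010 without sham replicate 1 or 6 or PH replicate 2, 4 or 6 (up to 0.0787). All 4 were also called lower in PH livers than in C0.

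Of the 478 genes tested that belong to a pathway list, 21 were called (4.39%), against 0.65% of all genes, and no list held a gene called lower, as 0.026% of all genes were. Where the 12 libraries were fitted alone, 4 were called. The lists were chosen with earlier results of these data known, so these shares are a description. The following lists held no call, and their median log2 fold changes were −0.08 over 19 NF-kB pathway genes, 0.05 over 20 genes of IL-6 receptor and STAT3 signalling, −0.17 over 24 acute-phase proteins, 0.02 over 16 p53 targets, 0.02 over 19 heat shock proteins, −0.00 over 20 genes of ER stress and the integrated stress response, and 0.03 over 15 genes of the metal and antioxidant response. Among acute-phase proteins 5 of 24 were above 0. Saa1, an acute-phase protein named after its values were seen, was at 51.0, 73.2 and 127 RPKM after PH and 58.7, 135 and 1651 RPKM after sham surgery, with a log2 fold change of −1.56 (adjusted p = 0.188). Its highest sham levels were in replicates 1 and 3. Lists of growth held no call either, with medians of 0.11 over 14 genes of the Hippo pathway and YAP targets, 0.04 over 25 of ribosome biogenesis, 0.02 over 10 of polyamine metabolism and −0.03 over 17 G1 and cell-cycle genes, among them Ccnd1. Metabolic lists had medians of 0.05 over 23 genes of bile acid synthesis and transport, 0.12 over 11 of fatty acid synthesis, −0.29 over 12 of cholesterol synthesis and 0.17 over 16 PPAR-alpha targets, and the 15 hepatocyte transcription factors had one of 0.12, again with no call. In cholesterol synthesis a single gene of 12 was above 0, and the median was 0.23 in replicates 1 to 3, where 1 gene was called higher, and −0.66 in replicates 4 to 6. The widest split of any pathway list was that of fatty acid synthesis, with 0.75 and −0.55, where 2 genes were called higher in replicates 1 to 3. For heat shock proteins the medians were −0.42 and 0.42, with 1 gene called lower in replicates 1 to 3, and for acute-phase proteins −0.37 and 0.01, with 3 called lower in replicates 1 to 3.

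**Figure D3:**
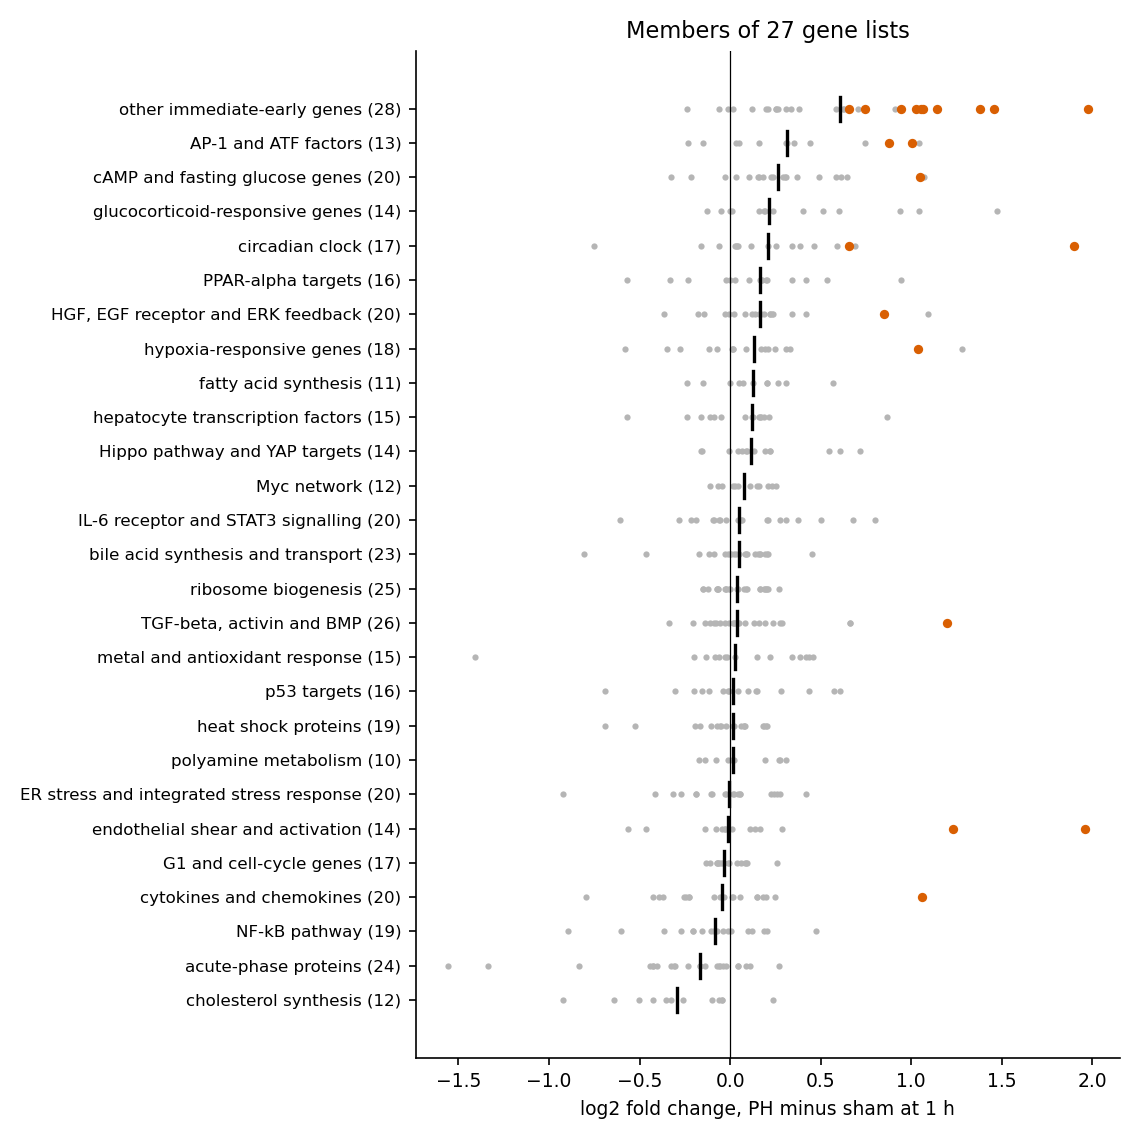
Log2 fold change of PH over sham at 1 h (x axis, on log2(RPKM + 0.25)) for every gene tested of each of the 27 pathway lists (y axis), with called genes in orange and the median of a list as a black tick. Other immediate-early genes hold 10 of the orange points and have a median of 0.61, while most lists lie around 0.

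The comparison was then made within each triplicate, in the same fit. Within replicates 1 to 3, 426 genes were called (2.77%), of which 394 were higher after PH (2.56%). Within replicates 4 to 6, 148 were called (0.961%), of which 50 were higher (0.325%). Once all libraries had been shifted to a common median, the called genes were 443 with 240 higher and 218 with 127 higher, so the split by direction depended on the scaling. Only 26 genes were called in both (0.169%), which is 6.1% of the first set and 17.6% of the second, and 14 of the 26 went the same way (0.0909%), all of them higher after PH. Of the genes called in replicates 1 to 3, 40.1% had the same sign in replicates 4 to 6, and of those called in replicates 4 to 6, 33.1% had the same sign in replicates 1 to 3. Across all 15396 genes the sign was shared by 41.3%, or 45.2% with the same median, and the log2 differences of the triplicates had a Pearson correlation of −0.089 across genes, which are not independent replicates. The count within replicates 1 to 3 was 187 without sham replicate 1, 159 without PH replicate 2 and 128 without PH replicate 3. Within replicates 4 to 6 it was 39 without sham replicate 4, 15 without PH replicate 4 and 91 without PH replicate 5.

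The 14 genes that rose in both triplicates were Apold1, Rasd1, Gm129, Gm17132, Lipg, Dusp4, Akap12, Thbd, Inhbb, Atp1b1, Tnfaip6, Dact1, Hoxa5 and Chd1. Atp1b1, the beta subunit of the sodium pump, was the most abundant of them, at 49.6, 58.0 and 74.3 RPKM after PH and 21.8, 28.6 and 42.3 RPKM after sham surgery, and its log2 fold changes of 0.97 and 1.09 in the triplicates were alike. Chd1, a chromatin remodeller, was at 4.86, 5.60 and 6.12 RPKM against 2.39, 3.05 and 4.46 RPKM, with log2 fold changes of 1.01 and 0.51. Tnfaip6, a hyaluronan-binding protein of inflamed tissue, was at 0.404, 0.568 and 0.76 RPKM against 0.0634, 0.184 and 0.248 RPKM, with 1.06 and 0.87. None of these 3 genes overlapped between the groups of 6. Dact1, a regulator of WNT signalling, rose by 0.96 and 0.97, and Hoxa5, a homeobox factor, by 0.61 and 0.92. The other 12 genes called in both went opposite ways: Fosb, Stat5a, Snx24, Cdc14b, Smurf1, Arid4a, Cml3, Fnip2, Nr6a1, SNORA74 and Gm4477 were higher after PH in replicates 1 to 3 and lower in replicates 4 to 6, and Phf8, a histone demethylase, the reverse. Phf8 was at 0.912, 1.77 and 2.72 RPKM in PH replicates 1 to 3 and at 2.38, 3.34 and 2.43 RPKM in 4 to 6, while the sham libraries held 3.59, 3.83 and 3.64 RPKM and 0.864, 0.846 and 1.11 RPKM. It was thus the sham level that differed most between its triplicates.

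For all 96 genes called higher the mean difference was above 0 in both triplicates, and for all 4 called lower it was below 0; these genes were chosen on the same 12 libraries. With the same median, Aass was the 1 exception among the 96. Their median log2 fold change was 1.00 in replicates 1 to 3, from 0.14 to 3.33, and 0.64 in replicates 4 to 6, from 0.05 to 2.42, and 73 of the 96 had the larger value in replicates 1 to 3. Within replicates 1 to 3, PH and sham libraries did not overlap in 89 of the 100 genes (23.9% of all genes), within 4 to 6 in 75 (18.2%), and in both, in the same direction, in 64 (1.36%).

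**Figure D4:**
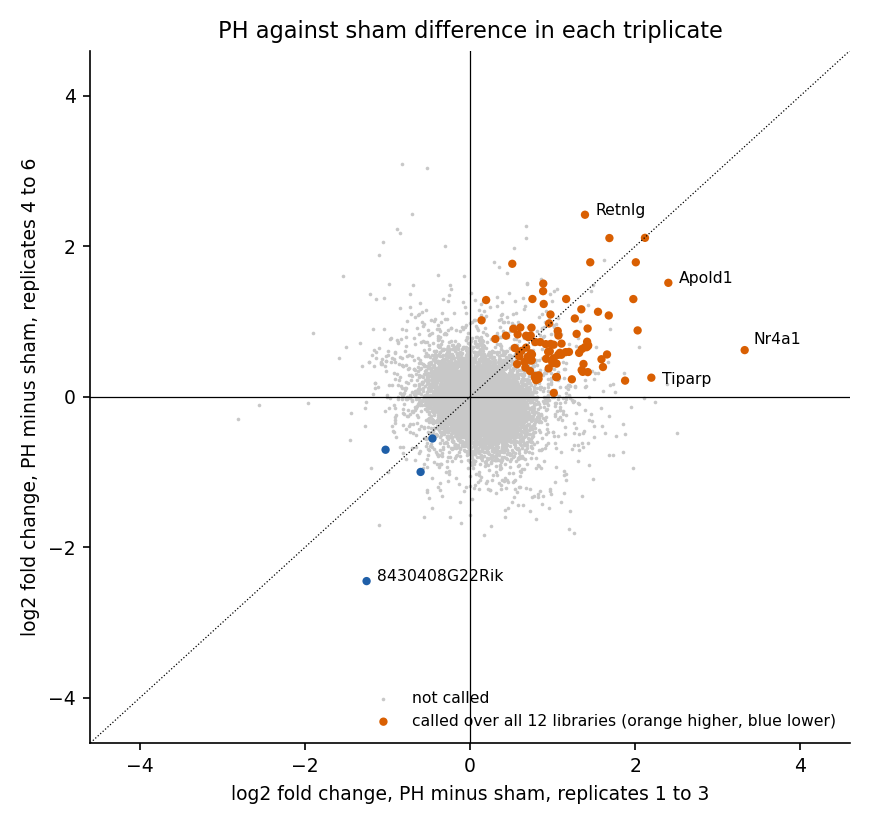
Log2 fold change of PH over sham at 1 h within replicates 1 to 3 (x axis) against that within replicates 4 to 6 (y axis), each on log2(RPKM + 0.25), for all genes tested, with the 100 called genes coloured. The called genes lie in the quadrants where both differences share a sign, whereas over all genes 41.3% share one.

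A difference of the PH effect between triplicates was tested as a term of the same fit and was called for 743 genes (4.83%), with 660 of them (4.29%) more positive in replicates 1 to 3. With the same median there were 575, with 257 more positive, and the median over all genes moved from 0.14 to −0.01. The sham triplicates differed from each other in 1339 genes (8.7%), of which 119 were higher in replicates 1 to 3 (0.773%). With the same median these were 832 and 473, and without sham replicate 4 they were 403. The PH triplicates differed in 5 genes (0.0325%), or 13 with the same median, and in 10 to 12 without PH replicate 1, 3 or 5. Among the genes called higher at 1 h, Nr4a1, Tiparp, Pde4b, Fosl2 and Cry2 were named genes with such a difference. Nr4a1 was at 13.1, 32.8 and 27 RPKM in PH replicates 1 to 3 and at 1.54, 2.50 and 2.15 RPKM in the sham replicates of the same numbers. In replicates 4 to 6 it was at 9.02, 8.53 and 18.8 RPKM after PH and at 21.4, 6.37 and 2.73 RPKM after sham surgery, and the log2 fold changes differed by 2.71 (adjusted p = 0.006). Tiparp, with 2.20 in replicates 1 to 3 and 0.25 in 4 to 6, differed by 1.94 (adjusted p = 0.00291). Jun was at 11.3, 13.4 and 12.7 RPKM after PH against 4.28, 4.22 and 5.65 RPKM in replicates 1 to 3, and at 8.62, 9.40 and 13.5 RPKM against 30.9, 13.1 and 7.58 RPKM in replicates 4 to 6. Its difference was 1.37 in the first triplicate, where it was called, and −0.49 in the second. The count of genes with such a difference was 423 without sham replicate 3, 154 without sham replicate 4, 483 without PH replicate 2, 420 without PH replicate 3 and 126 without PH replicate 4.

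The 5 genes with the largest differences in the other direction were Derl3, Serpina4-ps1, Eif4ebp3, Onecut1 and Socs2. Derl3, which takes part in the disposal of misfolded proteins, was at 0.492, 3.58 and 1.88 RPKM after PH and 4.41, 2.51 and 2.37 RPKM after sham surgery in replicates 1 to 3. In replicates 4 to 6 it was at 8.88, 14.0 and 6.62 RPKM against 0.791, 1.72 and 0.454 RPKM, and the effects differed by −3.92 (adjusted p = 0.037). The groups did not overlap in the second triplicate and did in the first. Onecut1, a hepatocyte transcription factor, differed by −3.13 (adjusted p = 0.0184), being at 1.98, 1.70 and 3.41 RPKM in PH replicates 4 to 6 against 0.106, 0.345 and 0.229 RPKM after sham surgery. Socs2, an inhibitor of growth hormone signalling, differed by −3.11 (adjusted p = 0.0244), and it had 2.57, 3.22 and 7.25 RPKM against 0.317, 1.72 and 0.666 RPKM in replicates 4 to 6. Sham replicates 1 to 3 held 3.18, 8.65 and 8.90 RPKM of Socs2, above the other sham triplicate.

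Levels at 1 h were also set beside the resting livers, which both operated groups share as their reference and which were collected at ZT2 rather than ZT3. PH livers differed from C0 in 2078 genes (13.5%), with 746 higher (4.85%), and sham livers in 1197 genes (7.77%), with 375 higher (2.44%). With the same median the counts were 1913 with 975 higher and 1065 with 600 higher. Of the 96 genes higher after PH than after sham surgery, 90 were called higher in PH livers than in C0 and 44 were called higher in sham livers than in C0. These genes were chosen on the same 1 h libraries, which fixes a larger difference from C0 after PH than after sham surgery. Their median difference from C0 was 1.29 after PH and 0.43 after sham surgery, and 84 were above C0 after both operations. Genes called above C0 after PH and not after sham surgery included Apold1, with differences from C0 of 2.17 after PH and 0.21 after sham surgery, Akap12, with 1.42 and 0.08, and Gm17132, with 1.72 and 0.08. Genes called above C0 after both operations included Nr4a1, with 4.74 and 2.77, Sik1, with 3.41 and 1.95, Rasd1, with 3.26 and 1.36, and Dusp1, with 3.12 and 2.07. In 3 of the 96, Zfp36l1 and Mir27b among them, sham livers were called below C0, with Mir27b at 0.29 after PH and −1.83 after sham surgery.

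The 96 genes were then followed in the separate PH and sham livers of later times. At 10 and 20 h the study lists sham livers from a single experimental period and PH livers from more than 1. At 4 h the PH libraries were replicates 4 to 6 only. Operation and period are therefore not balanced at these times, and their parts cannot be fully told apart. At 4 h, with 3 PH and 5 sham libraries, 32 of the 96 (33.3%) were called higher after PH, where 3.16% of all genes were, and 4 were called lower (5.48% of all genes). At 10 h, with 6 and 3 libraries, 21 (21.9%) were called higher against 3.4% of all genes and none was called lower, where 3.62% of all genes were. At 20 h, with 6 and 3 libraries, 25 (26%) were called higher against 4.49% of all genes, and 1 was called lower against 2.61%. At 48 h, with 5 and 3 libraries, 22 (22.9%) were called higher against 24.5% of all genes, a share near the background. Of all 100 genes called at 1 h, 25 were called in their 1 h direction at 48 h. With the same median, 98 genes were called at 1 h, and 7 of them were called in that direction at 48 h. Of the 96 genes, 4 were called lower at 48 h, against 2.69% of all genes. The median log2 difference of the 96 was 0.44, 0.32, 0.34 and 0.20 at 4, 10, 20 and 48 h, and that of all genes was −0.04, −0.00, 0.07 and 0.27. Thbd was called higher at each of these times, with log2 differences of 1.01, 1.93, 2.10 and 1.17 (adjusted p = 0.00403, 1.45e-07, 3.29e-08 and 0.00019). Sik1 was called higher at 4, 10 and 20 h, with 1.38, 0.98 and 0.92, and Klf4 at the same times, with 0.74, 0.69 and 0.83. Tnfaip6 had its largest difference at 48 h, 1.70 (adjusted p = 1.32e-10). Apold1 was at −0.01 at 4 h and was called higher at 20 h, at 0.83 (adjusted p = 0.00275). Nr4a1 and Dusp1, with 0.99 and 0.02 at 4 h, were not called at any of the 4 later times.

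**Figure D5:**
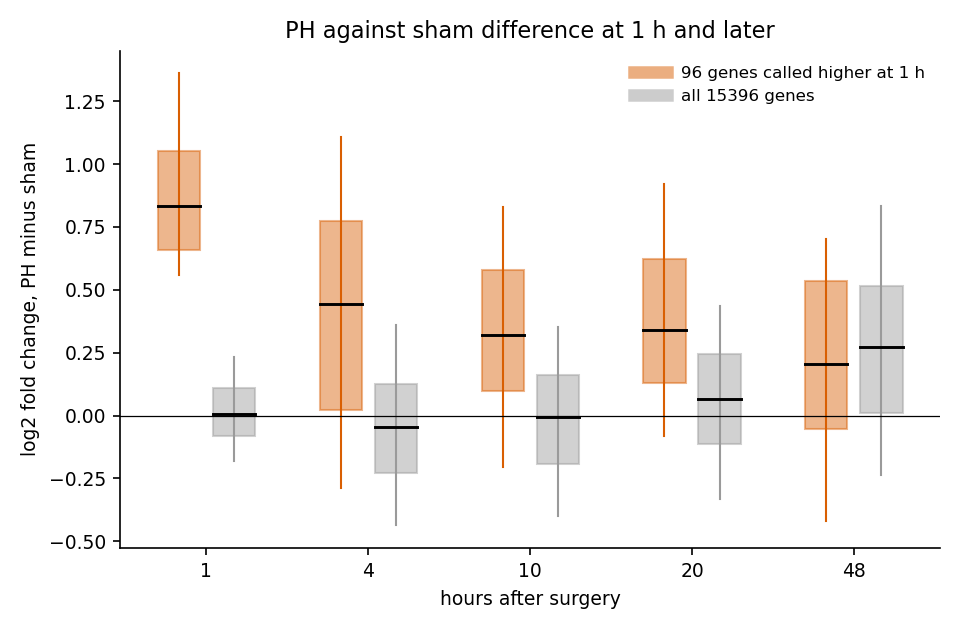
Log2 difference of PH and sham livers (y axis, on log2(RPKM + 0.25)) for the 96 genes called higher at 1 h and for all genes tested, at 1 h and at the 4 later times up to 48 h (x axis, hours after surgery); boxes span the quartiles with the median in black and lines the 10th to 90th percentiles. The median of the 96 genes is 0.44 at 4 h and 0.20 at 48 h, where that of all genes is 0.27.

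Of the members of the clock list, both genes called at 1 h lay on the opposite side at 4 h. Gm129 was called lower after PH at 4 h, with a log2 difference of −1.75 (adjusted p = 0.00112), and so was Cry2, with −0.75 (adjusted p = 0.000833), whereas both had been higher at 1 h. Of the 4 genes that fell at 1 h, none was called lower at 4 h, 2 were at 10 h, 2 at 20 h and 3 at 48 h. AW112010 was lower by −0.74, −0.92 and −0.74 at 10, 20 and 48 h, and Clec2d by −0.77, −0.95 and −1.14. Tmem140, the best supported fall at 1 h, was not called at any later time.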

How the data were processed

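Poly(A) RNA of single livers was sequenced as stranded 100-base single reads. The authors mapped reads to mm9 with TopHat2 2.0.13 and Bowtie2, used SAMtools 0.1.19, and with featureCounts counted those on the transcribed strand of each Ensembl 67 gene, splitting a read with several positions among them. The authors deposited log2 RPKM, which covers 37991 genes and puts those without a read at −14.29 (52.9% of all values). Division by library totals means that abundant transcripts shift all others, and near-identical copies may share reads. No read counts were used. Of 84 columns, 80 match a labelled sample; 4 match none and were not used, and 7 labelled samples have no column and were not analysed here.

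Genes above −1.5 in at least 1 of the 80 libraries were kept (15396); this is about 19.3 reads on 2 kb at the median depth of the 12 libraries. Depth was estimated by taking the most frequent low value of RPKM times exon length as 1 read, with values up to 10 reads and a tolerance of 0.05. The 19 groups, with X1 and S1 split into triplicates for the comparisons within them, were compared on log2(RPKM + 0.25) in a linear model with limma 3.58.1 (R 4.3.3), so that all groups share each gene's spread. The pseudocount makes the fold changes of low genes too small. P values were adjusted by Benjamini-Hochberg within a comparison, and the fit was tested on simulated data. Libraries are separate mice, and no pair of a group was a copy (squared differences at least 2.67 times counting error, correlation at most 0.921). Summaries and plots used Python 3.11.15, numpy 2.4.6, pandas 2.3.3, scipy 1.17.1 and matplotlib 3.10.9. The genes described are, where called and at a group mean over 0 (log2 RPKM) in X1 or S1, the 20 with the largest rise and 10 with the largest fall, every called member of a list, up to 3 abundant uncalled members of a list, the 5 largest triplicate differences in each direction, and genes called in both triplicates; others are said to be chosen after their values were seen. Members and lists were chosen with earlier results of these data known. Alternatives were other pseudocounts, filters, scalings, weights, blocks and sets of libraries, and leaving out each library.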

Additional observations from a re-analysis of the deposited data

Results flagged for a closer look

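Within a group of 6 livers a single library stood apart for 3 of the genes described, where its gap to the nearest library took a large share of the group's range: Fosl2 in sham replicate 4, the highest (0.671 of the range), Smurf1 in PH replicate 4, the lowest (0.68), and Zfp36 in PH replicate 4, the highest (0.755). Of 168 groups examined, chance alone marks about 1 in 20, so 3 are fewer than that. On the RPKM printed above, sham replicate 4 also stood well apart for Nr4a1 and Jun, which these flags do not mark.

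The effect of PH differed between replicates 1 to 3 and replicates 4 to 6, by a test of the difference itself, in 27 of the genes described. The log2 effect was more positive in replicates 1 to 3 for AL672259.1 (by 3.07), Gm17024 (2.99), Gm4477 (2.73), Nr4a1 (2.71), Scd3 (2.66), Cml3 (2.2), Fosb (2.17), Atf3 (2.12), Tiparp (1.94), Jun (1.85), Fnip2 (1.75), Pde4b (1.66), Cdc14b (1.6), SNORA74 (1.55), Nr6a1 (1.5), Stat5a (1.4), Snx24 (1.3), Smurf1 (1.3), Arid4a (1.27), Fosl2 (1.1) and Cry2 (0.787). It was more positive in replicates 4 to 6 for Derl3 (−3.92), Serpina4-ps1 (−3.55), Eif4ebp3 (−3.15), Onecut1 (−3.13), Socs2 (−3.11) and Phf8 (−2.35). Of these genes some were chosen for that difference, which for them is a description. Fosb was at 0.15, 0.274 and 0.143 RPKM in sham replicates 1 to 3 and at 3.33, 0.832 and 0.798 RPKM in sham replicates 4 to 6. Serpina4-ps1 was at 62.1, 152 and 189 RPKM in sham replicates 1 to 3 and at 12.5, 46.8 and 20.0 RPKM in 4 to 6.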

How the results depend on the processing

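The 100 genes called at 1 h kept their direction under every alternative that tested them, and their number was 78 to 104 under other pseudocounts, the deposited log2 RPKM, other filters, the same median, no trend of the prior variance, and library weights. It was 16 with the 12 libraries alone (14 of them among the 100), 18 with the triplicate as a block, 104 as the mean of the differences within triplicates, and 58 to 138 when a library was left out. With the replicate number as a block in the 12 libraries 2 genes were called at 1 h, and the gene lists held 1 called gene. The labels do not say whether equal numbers pair the livers. The deviations of same-numbered PH and sham libraries from their group means had correlations between −0.186 and 0.273. Only replicate 1 correlated best with its own number. Such correlations cannot decide whether the livers were paired. With a pseudocount of 1 the counts were 228 within replicates 1 to 3, 660 between sham triplicates and 2 between PH triplicates. Of the 78 genes called at 1 h with that pseudocount, 15 were called in the same direction at 20 h and 12 at 48 h. In the main fit these counts were 27 and 25 of the 100 genes. PH triplicates differed in 17 genes on the deposited log2 RPKM, in 9 without a filter and in 13 with the same median. With the same median sham triplicates differed in 832 genes. Of the 98 genes called at 1 h in that setting, 7 were called in the same direction at 48 h. With the 12 libraries alone 137 genes were called within replicates 1 to 3, 33 within 4 to 6, 308 for their difference, 1 between PH triplicates and 4 in the gene lists. With the same median in these 12, chosen after seeing the data, the counts were 30 at 1 h, 82, 17, 60 for the difference, 548 between sham and 1 between PH triplicates. With library weights they were 875 within replicates 1 to 3, 261 within 4 to 6, 1442 for the difference and 211 between PH triplicates.

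With each library left out in turn the counts ran from 128 to 593 within replicates 1 to 3, 15 to 145 within 4 to 6, 126 to 922 for their difference, 403 to 1623 between sham and 4 to 12 between PH triplicates, and 14 to 27 in the gene lists. The log2 fold changes at 1 h that changed sign by at least their SE belonged to genes not called. Over the fits without a library, Snx24 ran from −0.17 (without sham replicate 2) to 0.11 and SNORA74 from −0.22 to 0.17 (without sham replicate 5). Cdc14b ran from −0.20 to 0.16, Smurf1 from −0.13 to 0.16 and Nr6a1 from −0.23 to 0.13 (these 3 without sham replicate 4). Smaller changes of sign included Fosb, at −0.03, and Fnip2, at −0.01, with a pseudocount of 1, neither of them called. Low genes are limited by depth, since 3 of the 100 (Mir27b, Gm11883 and Ch25h) had no more than 20 estimated reads in any library.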
